A study of Homo sapiens with 12 samples.

Results

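SMC proteins are ATPases with a long coiled coil that pair up to form ring-shaped complexes on chromosomes. Cohesin, built on SMC1A and SMC3 and closed by the kleisin RAD21, holds sister chromatids together and extrudes chromatin loops, STAG1 and STAG2 are alternative subunits that bind the kleisin, and NIPBL loads it onto DNA. Condensin, built on SMC2 and SMC4, compacts chromosomes for mitosis, and the SMC5 and SMC6 complex acts in the repair of damaged DNA. The RNAs of these 10 genes were followed in precipitates of eIF4E, the protein that binds the cap at the start of messenger RNAs. The members were the probe sets of the array whose only gene in the platform annotation is one of the 10, which gave 24 of 19064 probe sets with 1 gene, and 10 of 11963 genes.

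All precipitates came from MDA-MB-231, a human triple-negative breast cancer line, so every group shares this 1 line. The cells were collected 6 h after 2 Gy of X-rays or left untreated, and each lysate was incubated with anti-eIF4E or with plain IgG, which gives the background. The groups of 3 arrays each were irradiated eIF4E, untreated eIF4E, irradiated IgG and untreated IgG, 12 arrays in all. The series' design text calls the replicates biological, and nothing in the labels names separate cultures, so the p-values measure the spread between these arrays.

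Values are MAS5 signals, scaled by the authors so that each array has the same trimmed mean (500.2). A signal is therefore relative to the other genes of its array. The number of arrays limits the precision. Markers fitted the line in part, with 5 of 6 mesenchymal markers (VIM, CD44, AXL, MSN and CAV1) above the level below which genes were left out and SPARC under it. Of the luminal markers, ESR1, PGR and CDH1 were under it, whereas GATA3, KRT8 and KRT18 were above. The 11 markers of leukocytes, liver, neurons and muscle had array medians of 6.02 to 36.1, taken below as the signal of genes not expressed. Single markers read higher on some arrays, APOA1 up to 77.5 and GFAP up to 55.8, and CD14 and SERPINA1 lay above the filter.

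The cap that eIF4E binds sits on the first transcribed base, so the surroundings of the annotated starts are shown. They are from RefSeq on GRCh38.p14, for 9 of the 10 members with 14 starts. RAD21 was not included in this description, which does not mean that it lacks an annotated start. Each line gives the 15 bases before the start in lower case and the first 15 transcribed bases in capitals, for the first start of each gene and for the second of SMC4.
SMC1A (chrX:53422714-53422743, minus strand): ggcgaaaatcccgttAGGCCTGGACGTATT
SMC3 (chr10:110567680-110567709, plus strand): gagcgccgccattttGTTTGGCTGAGGGGA
STAG1 (chr3:136752364-136752393, minus strand): gtctgcagcggcgccATTGGCGTGTGGAAA
STAG2 (chrX:123960545-123960574, plus strand): tccattcgcctccaaGTCGCCGAAGAGCGA
NIPBL (chr5:36876754-36876783, plus strand): gcacttccggtcggcATTTTGTTCTGAGAG
SMC2 (chr9:104094294-104094323, plus strand): ctcgcgccgaaattcAAAGGAATAAATAGT
SMC4 (chr3:160399635-160399664, plus strand): tgtattttaggcgccATTTTCGAGTGAAGG
SMC4, second start (chr3:160400544-160400573, plus strand): ccttaaaaacaacaaCAACAAACTAAGCAG
SMC5 (chr9:70258963-70258992, plus strand): gtaacagttcgcggcAGTTCGCGCGGGAGC
SMC6 (chr2:17753796-17753825, minus strand): gcggggcgcaggcgcGGTTAGTACCGCGGT
Of the 14 member starts, 13 began with A or G and 1 (the second of SMC4) with C, where 78.1% of all 35116 starts in the table began with A or G and 14.7% with C. None of the 14 began with a C followed by pyrimidines through base 5, the form of terminal oligopyrimidine messengers, which 4.07% of all starts had. In the windows from 250 bases before to 50 after the starts, searched on both strands, the cell cycle element TTTGAA was present at 1 start each of SMC2, SMC3 and SMC4 (3 of 14 starts, against 15.2% of all starts), and TATAAA at none (11.5% of all). The GC box GGGCGG was present at 11 of the 14 starts, in 8 genes (45.0% of all starts), and CCAAT at 3 of 14, in STAG1 and STAG2 (34.6% of all). The windows of both SMC1A starts overlap and hold the same GC boxes, which were counted at each. These matches describe letters only.

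RNA of all 10 genes was lower in eIF4E than in IgG precipitates when set against the rest of each array, though scaling the arrays to the hybridization controls in place of the trimmed mean turned the direction of all 10 (below). Averaged over irradiated and untreated cells, the differences of log2(signal + 16) ran from -1.67 for SMC2 to -0.98 for RAD21, with a median of -1.37, where the median of all 7178 genes tested was -0.07 and the lower quartile -0.67. All 10 passed an adjusted p of 0.05 by limma as lower, against 38.2% of all genes tested, and 9 of the 10 were also lower at least 2-fold, against 13.9%. The members were chosen with earlier results of these data known, so these shares describe them and are no test of the set. On all 10 the 6 eIF4E arrays lay below the 6 IgG arrays without overlap, as they did for 26.7% of all genes. In irradiated cells alone 10 of 10 passed as lower (32.3% of all genes) with a median of -1.55, and in untreated cells alone 10 of 10 (31.7%) with a median of -1.32. Split by replicate number, the median difference was -1.38 for replicate 1 and -1.36 for replicates 2 and 3. Less RNA bound to eIF4E and more RNA held by IgG cannot be told apart, and the input RNA was not analysed here.

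**Figure D1:**
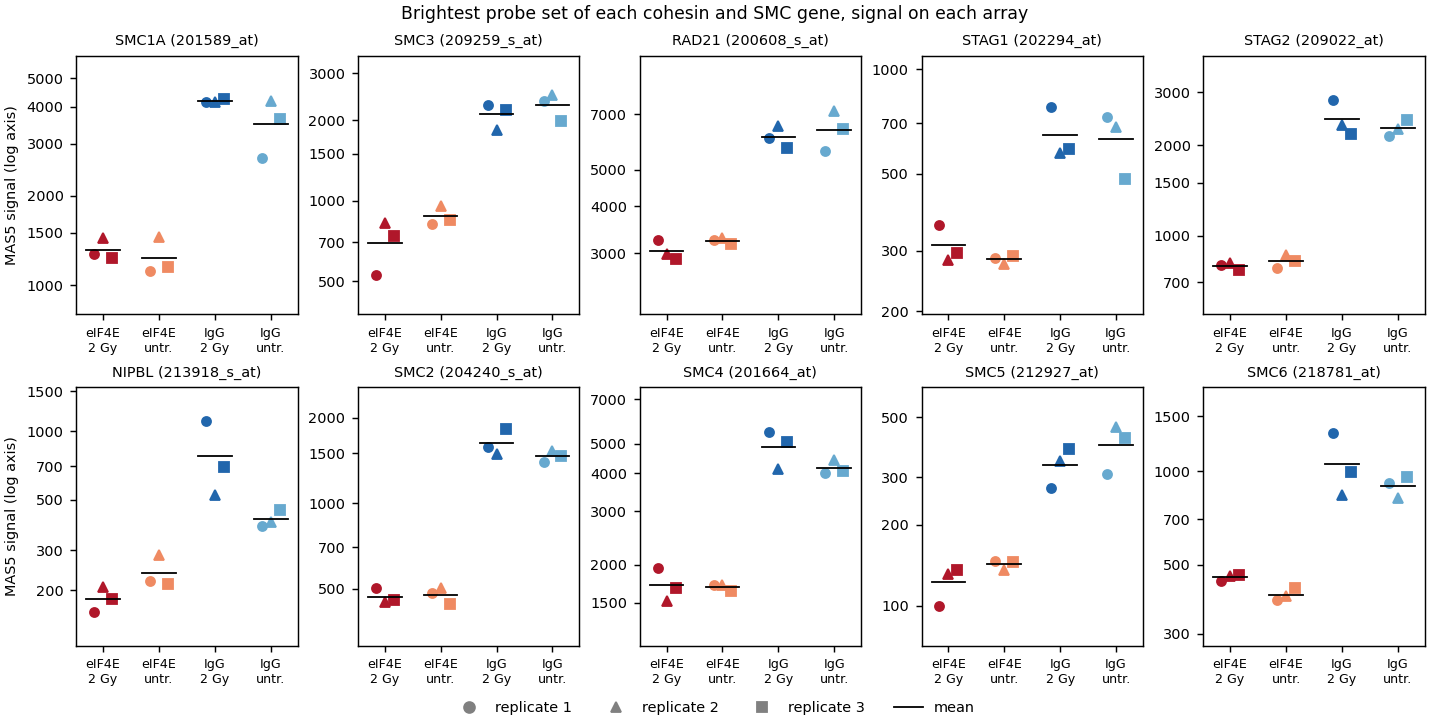
MAS5 signal on a log axis of the brightest probe set of each of the 10 genes on each of the 12 arrays, with the replicate number as the symbol and the group mean as a line. In every panel the 6 eIF4E arrays lie below the 6 IgG arrays, on values relative to the other genes of each array; scaling to the hybridization controls would turn the direction.

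SMC1A and SMC3 form the V-shaped core of the cohesin ring. SMC1A had signals of 1277, 1445 and 1234 in irradiated and 1117, 1450.2 and 1148 in untreated eIF4E precipitates, against 4164, 4155 and 4240.4 in irradiated and 2697, 4173 and 3642 in untreated IgG precipitates. The highest eIF4E array was thus well under the lowest IgG array, the first replicate of the untreated group. SMC1A was 2.96-fold lower with eIF4E (a log2 difference of -1.57 ± 0.11, SE, with 6 arrays per antibody, limma adjusted p = 5.06e-09). SMC3 had signals of 528, 826 and 740.1 in irradiated and 821, 955 and 847 in untreated eIF4E precipitates, against 2293, 1846 and 2191 in irradiated and 2369.7, 2485 and 1997 in untreated IgG precipitates. No arrays of the antibodies overlapped, and the first irradiated eIF4E replicate was the lowest of all. SMC3 was 2.79-fold lower (-1.48 ± 0.12, adjusted p = 1.38e-08).

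RAD21, the kleisin that closes the ring and is cut by separase at anaphase, was the least lower of the 10 over both treatments on the authors' scaling, and the highest of them, at 1.63, on that of the hybridization controls. Its signals were 3257, 2988 and 2901 in irradiated and 3249.5, 3304 and 3178 in untreated eIF4E precipitates, against 6043, 6517 and 5700.1 in irradiated and 5591, 7129 and 6415 in untreated IgG precipitates. The eIF4E arrays were close to each other and all under the IgG arrays. RAD21 was 1.97-fold lower (-0.98 ± 0.09, adjusted p = 4.96e-08), and was the 1 member whose difference stayed under 2-fold.

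STAG2, the more abundant of the mitotic STAG subunits in many somatic cells, had signals of 799, 813 and 768 in irradiated and 782, 860.3 and 822 in untreated eIF4E precipitates, against 2822, 2329 and 2182 in irradiated and 2140.0, 2265 and 2422 in untreated IgG precipitates. Its eIF4E arrays differed little among themselves and stood apart from every IgG array. STAG2 was 2.88-fold lower (-1.52 ± 0.09, adjusted p = 1.17e-09). STAG1, its paralogue, had signals of 354, 282 and 295 in irradiated and 285, 275 and 289 in untreated eIF4E precipitates, against 781, 573 and 588 in irradiated and 731, 679.8 and 482 in untreated IgG precipitates. The antibodies did not overlap here either, with the third untreated IgG array the lowest of its side. STAG1 was 2.08-fold lower (-1.05 ± 0.13, adjusted p = 1.57e-06). Whether the 2 paralogues differed from each other was not tested.

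NIPBL, the cohesin loader, had the largest error of the 10. Its signals were 160.1, 208 and 182 in irradiated and 220.3, 285 and 213 in untreated eIF4E precipitates, against 1112, 523 and 696 in irradiated and 383, 398 and 451 in untreated IgG precipitates. The first irradiated IgG array was more than any other of the 12, and the eIF4E arrays were all lower than the IgG arrays. NIPBL was 2.53-fold lower over both treatments (-1.34 ± 0.16, adjusted p = 1.18e-06), by -1.93 ± 0.22 in irradiated cells (adjusted p = 2.51e-06) and by -0.75 ± 0.22 in untreated cells (adjusted p = 0.00898).

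The ATPases of condensin were lower too. SMC2 had signals of 501, 449 and 458 in irradiated and 485, 502 and 442 in untreated eIF4E precipitates, against 1578, 1486 and 1825 in irradiated and 1395, 1533 and 1471 in untreated IgG precipitates. Its arrays were tight within each antibody and far apart between them. At 3.19-fold lower (-1.67 ± 0.10, adjusted p = 5.99e-10) it was the lowest of the members over both treatments, on the authors' scaling and also, at 0.93, on that of the hybridization controls. SMC4 had signals of 1962, 1522 and 1677 in irradiated and 1724, 1719 and 1641 in untreated eIF4E precipitates, against 5476, 4133 and 5090.2 in irradiated and 3998, 4429 and 4078 in untreated IgG precipitates. All eIF4E arrays were under all IgG arrays. SMC4 was 2.63-fold lower (-1.39 ± 0.10, adjusted p = 3.59e-09).

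SMC5 and SMC6 form the third complex. SMC5 was the dimmest member by its brightest probe set, with signals of 99.8, 132 and 136 in irradiated and 147, 136 and 146 in untreated eIF4E precipitates, against 274, 344 and 382 in irradiated and 308, 460.3 and 419 in untreated IgG precipitates. The arrays of the antibodies did not overlap, with the first irradiated eIF4E replicate the lowest of all. SMC5 was 2.54-fold lower (-1.34 ± 0.14, adjusted p = 3.08e-07). SMC6 had signals of 442, 458 and 465 in irradiated and 385, 395 and 421 in untreated eIF4E precipitates, against 1327, 837 and 994 in irradiated and 917, 817 and 959.7 in untreated IgG precipitates. The eIF4E arrays lay together below the IgG arrays. SMC6 was 2.21-fold lower (-1.14 ± 0.11, adjusted p = 1.70e-07).

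Of the 24 probe sets, 23 passed the filter on dim signals, set at a signal of 57.4. One of them, a NIPBL probe set with signals of 36.3 to 73.7 (median 49.2) on eIF4E arrays against 55.4 to 212 (median 128) on IgG arrays, passed the filter only through its IgG side, so its being lower is no support, and the counts below hold it. All 23 passed as lower with eIF4E over both treatments in a fit of all 10566 tested probe sets, of which 38.3% did (22 of 22 without that probe set, a count added after the data were seen), from -1.75 for a probe set of NIPBL to -0.45 for the dimmer one of RAD21 (median -1.34, against -0.08 for all tested probe sets). On 21 of the 23 the 6 arrays of each antibody did not overlap (26.6% of all probe sets). In irradiated cells alone 21 of 23 passed (32.3% of all), the exceptions being the dimmer RAD21 probe set (-0.31, adjusted p = 0.120) and the _x_at probe set of SMC4 (-0.52, adjusted p = 0.128), a kind that may bind other transcripts. In untreated cells alone 21 of 23 passed (31.7% of all), the exceptions being 2 probe sets of NIPBL (-0.70 and -0.51, adjusted p = 0.0763 and 0.0697). The probe set left out, the second of SMC1A, had signals from 3.88 upwards on the eIF4E arrays, all of them under the 41.5 to 138 of the IgG arrays and near the level of genes not expressed.

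**Figure D2:**
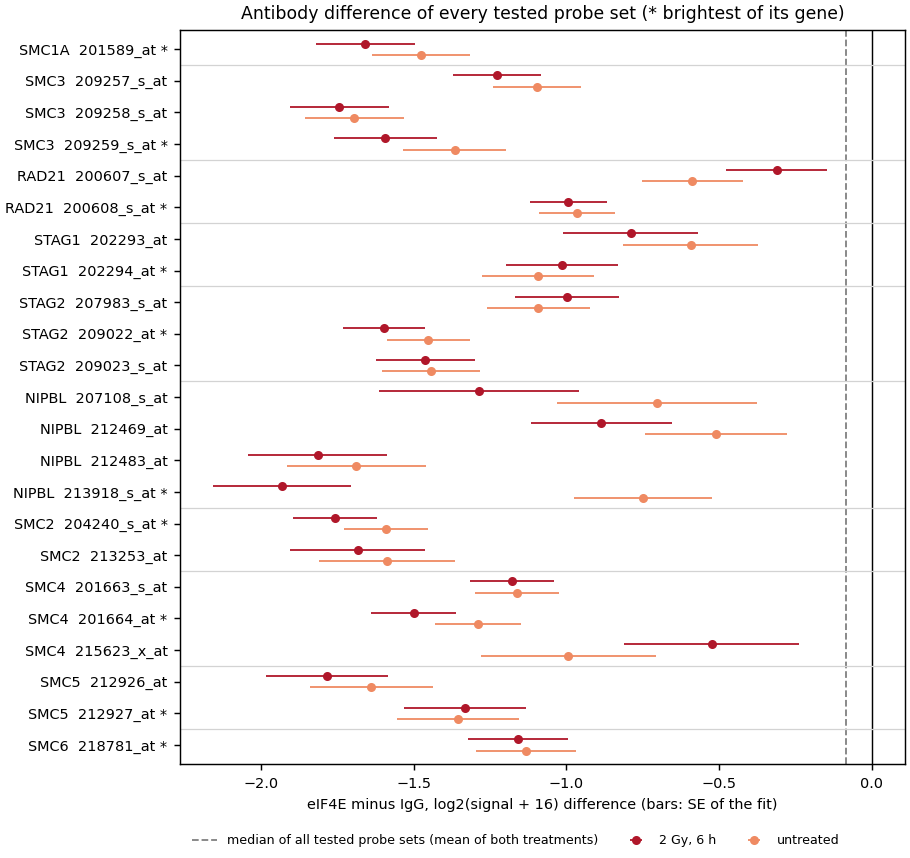
Difference of log2(signal + 16), eIF4E minus IgG, with the SE of the fit, for the 23 tested probe sets in irradiated and in untreated cells, and the median of all tested probe sets as a dashed line (-0.08). All points lie below 0 on values relative to the other genes of each array. Scaling to the hybridization controls turned the direction of the 10 genes over both treatments, and was not computed for these points. Of all members the probe sets of NIPBL spread the most within a gene.

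Probe sets of 1 gene fell by unequal amounts in some members. The dimmer RAD21 probe set had signals of 1422, 1075 and 1099 in irradiated and 1298, 1039 and 1158 in untreated eIF4E precipitates, against 1428, 1483 and 1527 in irradiated and 2223, 1485 and 1626 in untreated IgG precipitates. The sides nearly touched, and its decrease was smaller than that of the brightest probe set by 0.53 (exact permutation test of the ratio of both on each array, two-sided, 6 against 6 arrays, p = 0.0108, adjusted p = 0.0233 over the 3306 such pairs of the table). Also smaller than at the brightest probe set were the decreases at 1 further probe set each of STAG2 (by 0.48, exact p = 0.00866, adjusted p = 0.0196), SMC4 (by 0.22, exact p = 0.00649, adjusted p = 0.0155) and NIPBL (by 0.64, exact p = 0.0260, adjusted p = 0.0481). In all, 4 of the 13 member pairs passed, a smaller share than the 54.0% of all pairs. The permutations ran over all 12 arrays without regard to treatment or replicate number. Without the first replicate of every group 0 of 13 passed, a design of 4 against 4 arrays in which p cannot go under 0.0286. The place of each probe set along its transcript was not used here.

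Irradiation gave no call in these genes. Of the 10 members, 0 passed within eIF4E precipitates, within IgG precipitates or for the difference of both, as did 0% of all genes in each of the 3 comparisons by limma. At an unadjusted p under 0.05 there were 0 of 10 within eIF4E (1.14% of all genes), 1 of 10 within IgG (6.62%) and 1 of 10 for the difference (3.01%), NIPBL in both cases. Within eIF4E precipitates the irradiated minus untreated differences ran from -0.35 for NIPBL to 0.18 for SMC6 (median -0.03, all genes 0.001), and within IgG from -0.23 for SMC5 to 0.83 for NIPBL (median 0.12, all genes 0.005). Their SEs were 0.12 to 0.22, and none of these sizes passed with 3 arrays a side. SMC3 at -0.34 ± 0.17 within eIF4E (unadjusted p = 0.0585, adjusted p = 1) and SMC1A at 0.28 ± 0.16 within IgG (unadjusted p = 0.0996, adjusted p = 0.734) were the next largest.

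**Figure D3:**
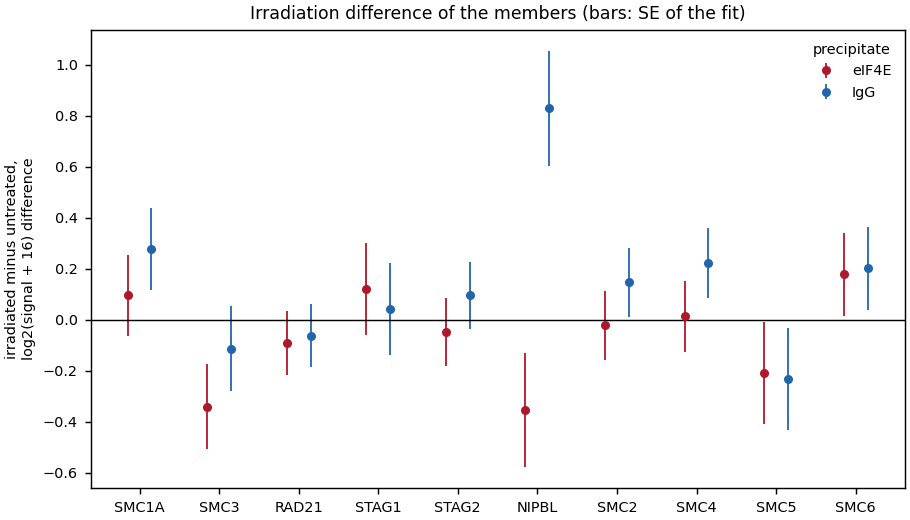
Irradiated minus untreated difference of log2(signal + 16) with the SE of the fit for each member, within eIF4E and within IgG precipitates. All members but NIPBL lie between -0.34 and 0.28 in both; NIPBL stands at -0.35 with eIF4E and at 0.83 with IgG, and neither passed after adjustment.

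Related genes, of the same complexes, of the cohesin cycle or related to the SMC ATPases, were taken from lists of 31 genes, of which 17 were tested. With eIF4E 13 of the 17 passed as lower (38.2% of all genes did), 2 as higher (32.5% of all) and 2 did not pass, with a median of -0.84, all on the scaling of the authors, since scaling to the hybridization controls would put all 17 above 0. The relatives of the SMC ATPases were both lower, RAD50, the ATPase of the MRN break sensor, by 2.98-fold (-1.57 ± 0.13, adjusted p = 2.93e-08) and SMCHD1, a silencer of the inactive X chromosome, by 2.52-fold (-1.33 ± 0.14, adjusted p = 3.81e-07). RAD50 had signals of 149 to 215 (median 177) on eIF4E arrays, against 487 to 685 (median 537) on IgG arrays. These did not overlap.

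Of the cohesin cycle genes, 5 of 7 tested were lower (38.2% of all genes) and 1 higher (32.5% of all). PDS5B, which with PDS5A helps WAPL to release cohesin, had signals of 20.0 to 63.3 (median 43.3) on eIF4E arrays against 128 to 199 on IgG arrays, a difference of -1.65 ± 0.20. It passed the filter only through its IgG side, so its call is no support, and without it 4 of 6 cohesin cycle genes and 12 of all 16 related genes were lower. ESPL1, the separase that cuts RAD21, was at -1.09 ± 0.15 (adjusted p = 6.87e-06). PTTG1, the securin that holds separase inactive, was the exception at 0.58 ± 0.09 (adjusted p = 3.51e-05), with 12069 to 17130.5 on eIF4E arrays against 9169.8 to 11558 on IgG arrays by an _x_at probe set, which may bind other transcripts. MAU2, the partner of NIPBL, was at -0.08 ± 0.14 (adjusted p = 0.651) and its arrays overlapped. WAPL, PDS5A and the insulator protein CTCF, which stops cohesin at loop borders, were at -0.87, -0.84 and -0.87.

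Of the 6 condensin subunits that are not SMC proteins, 5 were lower (38.2% of all genes), none higher (32.5% of all) and 1 did not pass, with a median of -0.62. NCAPG, a subunit of condensin I, was at -1.37 ± 0.12 (adjusted p = 4.57e-08), close to SMC4, and NCAPD2 at -0.82 ± 0.15 (adjusted p = 1.02e-04). NCAPH, the kleisin of condensin I, was at -0.35 ± 0.12 (adjusted p = 0.0135) with arrays that overlapped, and NCAPH2, that of condensin II, at 0.27 ± 0.31 (adjusted p = 0.452). Of the 7 listed genes of the SMC5 and SMC6 complex 2 were tested: NSMCE4A, its kleisin, was higher at 0.31 ± 0.09 (adjusted p = 0.00622), and SLF2, which recruits the complex to damage, was lower at -0.90 ± 0.12 (adjusted p = 4.31e-06). The meiotic subunits STAG3, REC8 and RAD21L1 lay under the filter.

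Several measures moved with the antibody and so with all of these differences, and their part in the results was not tested. The control probe set for Alu repeats, which lie mostly in introns and between genes, read 13482 to 18476 on eIF4E arrays, against 36876 to 53246 on IgG arrays. The signal of the 3' actin control over that of its 5' control, which rises as RNA is broken or copied in part, was 1.33 to 1.53 on eIF4E arrays and 2.96 to 5.38 on IgG arrays. The geometric mean of 18 hybridization controls was 440.3 to 1245.5 on eIF4E arrays, against 2052 to 8728 on IgG arrays. Scaling to them would move every gene by 2.60 towards eIF4E on the log2 scale, which puts all 10 members above 0, at 0.93 to 1.63, beneath an all-gene median of 2.53. The order of the members relative to the other genes is the same under both scalings.

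Length of the gene also moved with the antibody difference. The genes of the members span 28.8 kb (RAD21) to 416 kb (STAG1) in RefSeq, with a median of 71.6 kb, where the 7177 tested genes with a span had a median of 31.4 kb. Of the tested genes, 15.7% passed as lower among those up to 13.1 kb, 28.1% up to 31.4 kb, 45.5% up to 73.3 kb and 63.6% beyond, which are groups of 1794 or 1795 genes with medians of 0.48, 0.08, -0.25 and -0.66. None of the members was in the group of the shortest genes, 1 was in the next, 4 in the one up to 73.3 kb and 5 in that of the longest, and each was below the median of its group. The part of gene length in the result was not tested. Span is that of the gene with its introns, and the length of the messenger was not used here.

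**Figure D4:**
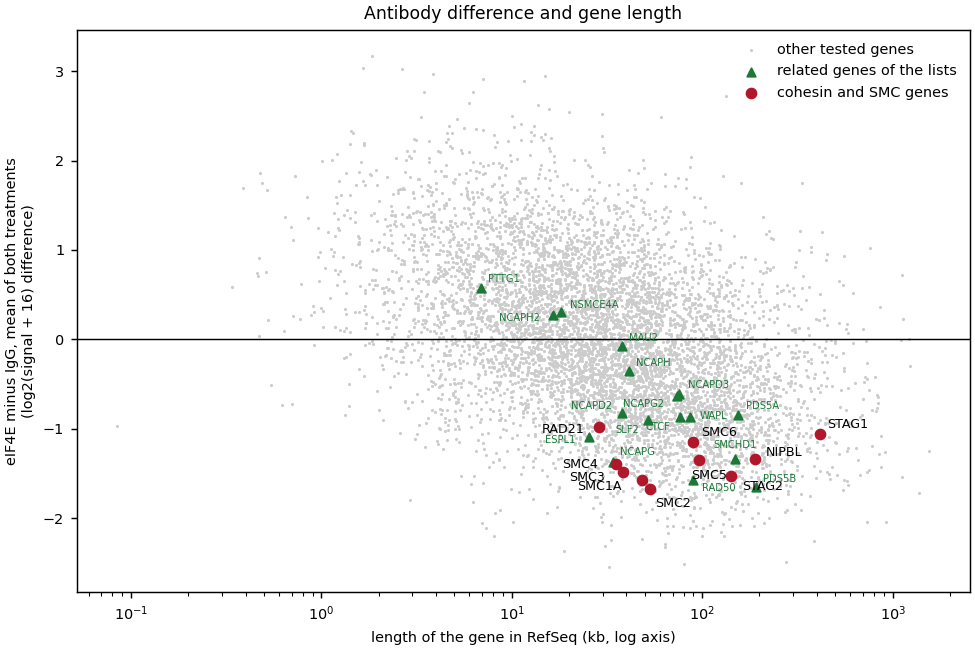
Difference of log2(signal + 16), eIF4E minus IgG as the mean of both treatments, against the length of the gene in RefSeq (kb, log axis) for the tested genes (grey), the 17 related genes (triangles) and the 10 members (circles). Longer genes lie lower in general, and the members lie between -1.67 and -0.98 at lengths of 28.8 to 416 kb, relative to the other genes of each array; scaling to the hybridization controls would lift all points by 2.60.

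Across the 12 arrays the genes outside the set whose log2 signal followed the members' mean profile most closely were HNRNPA2B1 and KDM3B (Pearson r = 0.997 each), DDX21 (0.997), ROCK1 (0.996) and PPP3CA (0.995). Their antibody differences were -1.22, -1.30, -1.82, -1.57 and -1.05. These arrays fall into 2 clusters by antibody, so the correlation describes that split above all. Of the members, STAG2 followed the common profile most closely (r = 0.996) and NIPBL least (0.906).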

How the data were processed

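Array signals of 12 precipitates were taken from the deposited table, which holds 1 intensity per probe set and array on a linear scale. The submitters' processing notes name MAS5 as the method of the authors; its version and settings are not given in the sources used here. Of 22277 probe sets, 62 were controls, 19064 had 1 gene in the platform annotation, 1043 several and 2108 none. For 19052 the current symbol was looked up by gene identifier in RefSeq (GRCh38.p14), which also gave start sequences and gene lengths.

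Each of 11963 genes was represented by its brightest probe set (an _x_at probe set only if the gene had nothing else), and genes under the 40th percentile of mean log2 signal were left out, which kept 7178. Differences of log2(signal + 16) were tested by limma 3.58.1 under R 4.3.3 (4 group means, eBayes with a trend) and adjusted by Benjamini-Hochberg over all genes or all probe sets tested, at 0.05. Such differences, and the folds made from them, understate changes of dim genes. Errors are the fit's SE. The fit was tested on simulated data. Alternatives were pseudocounts of 1 and 64, other filters, median centring or quantile normalization, array weights, no variance trend, probe set means, the replicate block, a fit of the compared groups alone, a 1.5-fold minimum and the omission of arrays. Scaling to hybridization controls was added after the data were seen.

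Members and lists were chosen with earlier results of these data known. Named were all members, up to 2 tested genes at either end of each list (WAPL, PDS5A and CTCF were added after their values were seen), and the 5 genes most like the members. A planned description by protein length was not made, and gene length was used in its place after the data were seen. Deviations of same-numbered arrays correlated at 0.374, 0.208 and 0.181 between irradiated and untreated eIF4E groups, which were taken as paired on this evidence. The limma SEs and p-values printed here are from the fit without this pairing, and the replicate block was run as an alternative. In each other pair of groups at least 1 number was under 0.1. Figures were drawn with matplotlib 3.10.9.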

Additional observations from a re-analysis of the deposited data

Results flagged for a closer look

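NIPBL by its brightest probe set stood out because irradiation moved every array one way with IgG and the other way with eIF4E: all 3 irradiated IgG arrays were above the untreated ones, and all 3 irradiated eIF4E arrays below. The irradiation difference was smaller with eIF4E than with IgG by -1.18 ± 0.32 (log2, SE, unadjusted p = 0.00180, adjusted p = 0.999 by limma), so it failed the correction. Such a pattern was seen in 24 of the 7178 genes tested (0.334%). The other NIPBL probe sets gave -0.58, -0.38 and -0.13 for the same difference, at unadjusted p of 0.226, 0.266 and 0.700 by limma. In the same order, their irradiated minus untreated differences were 0.31, -0.13 and 0.22 within eIF4E. Within IgG they were 0.89, 0.24 and 0.35, with arrays that overlapped. On the last of these probe sets all 3 irradiated eIF4E arrays were above the untreated ones, the reverse of the brightest probe set. The first of them, with a median of 49.2 on eIF4E arrays, passed the filter only through its IgG side, so its values are no support. For the brightest probe set, the difference was -0.89 without the first irradiated IgG replicate, the brightest array, and -0.81 without the first replicate of every group.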

How the results depend on the processing

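The direction of the members' calls rested on the scaling of the arrays. With arrays scaled to the hybridization controls, an alternative chosen after seeing the data, the members' median was 1.24 in place of -1.37. These controls varied within each antibody, with geometric means of 440.3 to 1245.5 on eIF4E arrays and 2052 to 8728 on IgG arrays. Of the 10 members, 9 were called higher and none lower, and the share of all genes called was not recorded. The all-gene median under that scaling was 2.53, above every member. In the antibody comparisons, all 737 values of single members under the other settings, all but that scaling, kept their direction and their side of the threshold, and the median over both treatments ran from -1.46 to -1.26. SMC5 fell under a filter at the 60th percentile. The 9 members left all passed as lower over both treatments, against 2012 of 4785 genes. In the irradiation comparisons 0 members passed under any of these settings. With the replicate number as a block 10 of 10 members passed as lower in each antibody comparison. Of all 7178 genes, 2829 did so over both treatments, 2439 in irradiated and 2410 in untreated cells. In each irradiation comparison 0 members and 0 of all genes passed with the block, the paired eIF4E groups included. The block thus changed no call of a member gene. Member pairs of probe sets past the threshold were 4, or 0 without replicate 1 of every group, where fewer arrays raise the smallest possible p. The bioB and bioC controls, which are among the 18 hybridization controls, differed by replicate number. The bioB over bioC signal was 0.368 to 0.443 on the arrays numbered 1 and 0.0284 to 0.0496 on the others. Without the arrays numbered 1 the members' median was -1.37 on the authors' scaling. A fit of the compared groups alone could not be made for the comparisons that use all 4 groups.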
